A study of Drosophila melanogaster with 6 samples.

Results

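The cadherin and catenin genes examined here were given as a list of 8 Drosophila genes: shg, alpha-Cat, p120ctn, CadN, Cad87A, ft, ds and stan. They were chosen by name, as the adhesion system in which the mammalian Hakai protein is best known, and not by a measured value. Earlier results of these data were known when the list was made. Of the 8, 7 were matched by FlyBase identifier among the 17559 genes of the count files. The identifier that the annotation gives for ds is not among them, so that no value was assigned to this gene. Poly(A) RNA was sequenced from 3 libraries of S2R+ cells treated with dsRNA against Hakai (Hakai KD) and from 3 libraries treated with dsRNA against the bacterial gene lacZ (control KD). Both groups received 10 μg of dsRNA in 3 treatments over 6 days, and they differ in the dsRNA alone as far as the labels say. S2R+ is a single cultured line of embryonic origin with hemocyte-like properties, and not an epithelium. In bulk libraries such as these, fewer cells with a transcript and less of it per cell cannot be told apart.

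Classical cadherins are transmembrane proteins whose extracellular repeats bind the same cadherin on a neighbouring cell in the presence of calcium. Their cytoplasmic tail holds β-catenin, encoded by arm in Drosophila, and p120-catenin, and α-catenin links the complex to actin. The atypical cadherins Fat and Dachsous bind each other and feed into Hippo signalling and planar polarity, and Flamingo, the product of stan, joins planar polarity complexes across cell borders. In mammals, Hakai binds and ubiquitinates E-cadherin, which is a reaction on the protein. In S2R+ cells, the study saw no ubiquitination site fall reproducibly after Hakai depletion, but names limited depth or missing stimuli as possible reasons. It describes Hakai as part of the complex that places m6A on mRNA, and reports changed expression and splicing upon its depletion. The read counts here measure transcripts only.

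The knockdown is defined by the dsRNA, and its template primers, taken from the study's list of oligonucleotides, are shown for that reason. Capitals mark the Hakai-specific part of each primer, written 5′ to 3′ without the promoter tail. Hakai lies on chromosome 2L.
Hakai dsRNA forward primer: CCTTAAGTGGAACCACAAGGTG
Hakai dsRNA reverse primer: GTATTGCGACTGCTGCCAGTTGC

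The Hakai transcript was examined first, to check the labels. It had 68.1, 72.6 and 77.8 normalized counts in Hakai KD replicates 1, 2 and 3, against 296, 330 and 298 in control KD replicates 1, 2 and 3. A normalized count is a read count divided by the effective size of its library, with TMM factors, and put back on the scale of an average library. The fall of 2.08 on the log2 scale (standard error, SE, 0.094, adjusted p = 1.8e-07 by the quasi-likelihood test of edgeR) left every Hakai KD library below every control library. The 6 libraries held 16041353 to 17288912 counts. Among replicate pairs, control KD replicate 1 stood farthest from its group, with a chi-square per degree of freedom of 11.4 and 14.7 against the other control libraries, where all other pairs lay between 2.25 and 8.10.

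The catenins were the most abundant members. To compare genes, counts were set per length of annotated exon and per library size as RPKM, with TMM factors. p120ctn, the p120-catenin gene, reached 88.1 ± 3.33 RPKM in Hakai KD and 89.5 ± 0.388 RPKM in control KD (SD, n = 3 each). alpha-Cat reached 69.5 ± 0.690 RPKM in Hakai KD and 72.1 ± 1.20 RPKM in control KD (SD, n = 3 each). Averaged over the 6 libraries, they stood above 92.7% and 90.3% of the 12521 detected genes that have an annotated length. A gene counts as detected here with any read in any of the 6 libraries. arm, which is a partner of the members and not in the list, was higher still, with 354 ± 3.45 RPKM in Hakai KD and 361 ± 2.43 RPKM in control KD (SD, n = 3 each). Its exons overlap those of mRpL16 on the other strand by 82 bases, and the strand setting of the counting is not given in the sources used here.

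The cadherins lay well below the catenins. shg, which encodes E-cadherin, had 9.41 ± 0.251 RPKM in Hakai KD and 8.42 ± 0.431 RPKM in control KD (SD, n = 3 each). Cad87A, a cadherin outside the classical group, had 9.15 ± 0.106 RPKM in Hakai KD and 9.37 ± 0.709 RPKM in control KD (SD, n = 3 each). The ranges of shg and Cad87A overlapped within each group, although their order within each library differed between the groups. CadN, the neural cadherin gene, followed far below with 0.156 ± 0.0143 RPKM in Hakai KD and 0.103 ± 0.0335 RPKM in control KD (SD, n = 3 each). Next came stan with 0.0497 ± 0.0130 RPKM in Hakai KD and 0.0476 ± 0.0134 RPKM in control KD (SD, n = 3 each). ft was the lowest member, with 0.0155 ± 0.00852 RPKM in Hakai KD and 0.0151 ± 0.00770 RPKM in control KD (SD, n = 3 each). S2R+ cells thus held the transcripts of the catenins at high levels and those of CadN, stan and ft at traces. Those of shg and Cad87A stood above 56.5% and 56.9% of all detected genes, at ranks 5452 and 5391 of 12521. The detected genes include many with very few reads, and only 7811 genes passed the filter on low counts used for testing.

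**Figure D1:**
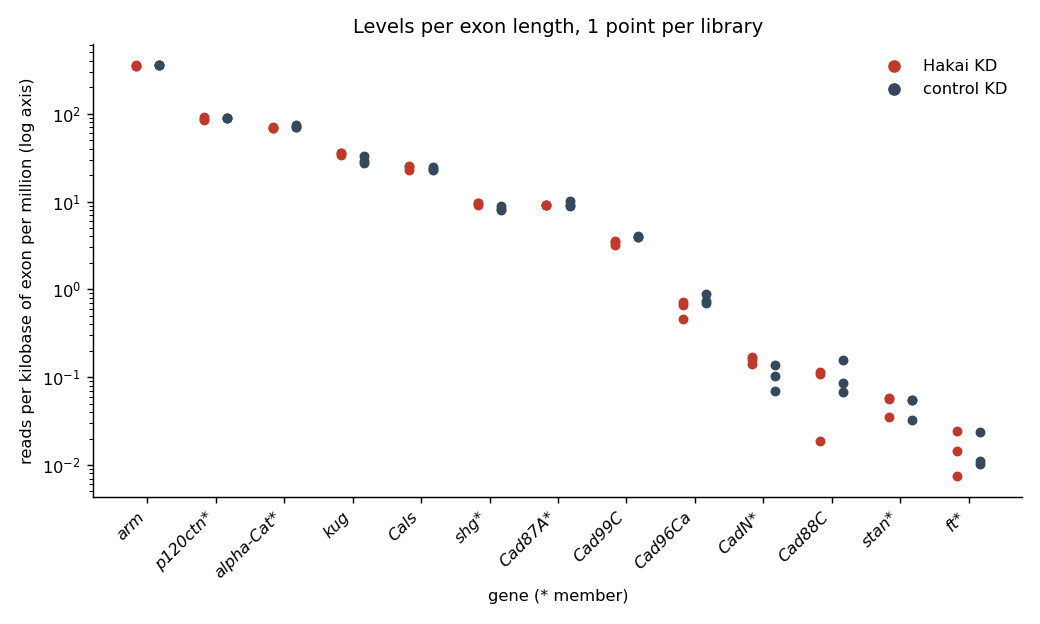
Levels of members (marked with an asterisk) and of listed relatives in RPKM on a log axis, with 1 point per library and Hakai KD left of control KD for each gene. The catenin genes p120ctn and alpha-Cat sit near 70 to 90, shg and Cad87A near 9, and CadN, stan and ft below 0.2.

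Where these genes lie differs widely, and none of the 7 matched members shares exon sequence with another gene in the annotation (BDGP6.54, a later annotation of the assembly named in the labels). shg (FBgn0003391) is compact, from 21049654 to 21057197 on the minus strand of 2R, with 1 annotated transcript and 6400 exonic bases. p120ctn (FBgn0260799) and stan (FBgn0024836) lie on the plus strand of the same arm, at 4595288 to 4609492 and at 10673345 to 10721138. alpha-Cat (FBgn0010215) covers 23318646 to 23338100 on the minus strand of 3L. Cad87A (FBgn0037963) covers 11893512 to 11949129 on the minus strand of 3R, with an intron of 29011 bases. CadN (FBgn0015609) spans 131288 bases, from 17647053 to 17778340 on the minus strand of 2L, with 12 transcripts and an intron of 39923 bases. ft (FBgn0001075) covers 4198404 to 4221796 on the minus strand of 2L and has the most exonic bases of the members, 16852. The paralogous CadN2 lies on the same strand, across a gap of 8630 bases from CadN. It was nearly silent, with means of 0.654 normalized counts in Hakai KD and 0.985 in control KD. How the counting treated reads that map to several places is not given in the sources used here.

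The effect of Hakai KD was then measured across all genes, and the members were read from that fit. Of the 7811 genes tested, 15.3% passed an adjusted p of 0.05 in that test, 7.58% as higher and 7.72% as lower in Hakai KD. Among the 6 members that passed the filter on low counts, 1 was called higher (shg) and 0 were called lower. This share is close to that of all genes. At an unadjusted p under 0.05, edgeR gave 2 of the 6 members, shg and CadN, both higher, beside 29.8% of all tested genes in either direction. DESeq2 gave 1 member at an unadjusted p under 0.05, which was also higher, and 0 at an adjusted p under 0.05. The median log2 fold change of the 6 members was 0.011, against 0.00058 over all tested genes, and 3 of the 6 were above 0, where 50.2% of all tested genes were. All libraries of Hakai KD lay on one side of all control KD libraries for 3 of the 6 members, as they did for 34.9% of all tested genes.

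**Figure D2:**
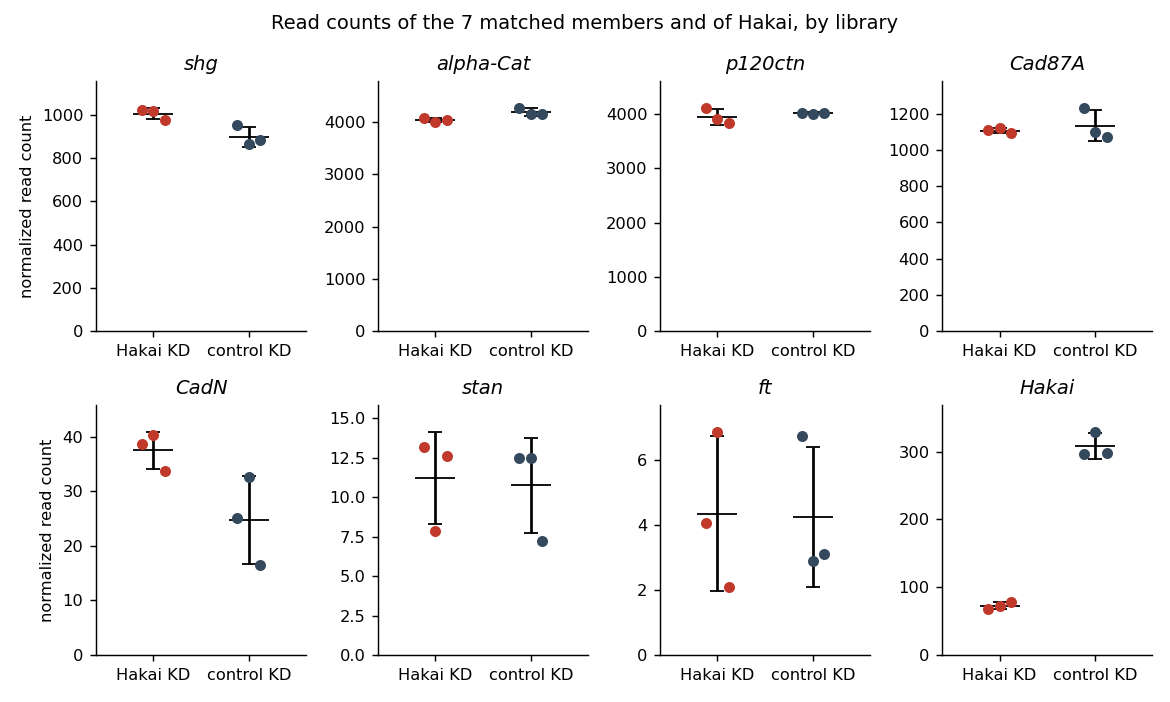
Normalized read counts of the 7 matched members and of Hakai in each library, with points for libraries, a bar for the group mean and whiskers for 1 SD, each axis starting at 0. shg lies at 974 to 1022 in Hakai KD and 864 to 951 in control KD without overlap, whereas p120ctn, Cad87A, stan and ft overlap between the groups.

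shg was the member that passed the test. It had 1022, 1018 and 974 normalized counts in Hakai KD replicates 1, 2 and 3, against 951, 864 and 882 in control KD replicates 1, 2 and 3. All Hakai KD libraries lay above all control libraries, with the smallest gap against control KD replicate 1. This is a log2 fold change of 0.16 (SE 0.046, edgeR adjusted p = 0.035), a rise of 11.8% with a 95% interval from 4.27% to 19.8%. The two-sided exact permutation test over the 6 libraries gave p = 0.1, the smallest that 3 against 3 allow. The rise stayed positive in all 12 alternatives, but its call did not hold in 6 of them. The adjusted p was 0.13 with DESeq2 and 0.10 when libraries were scaled by size alone. It was 0.11 without Hakai KD replicate 1, 0.12 without Hakai KD replicate 2, 0.13 without control KD replicate 2 and 0.087 without control KD replicate 3. Without control KD replicate 1 it was 0.014, at a log2 fold change of 0.20.

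The level of shg was also set against that of other adhesion genes within the same library, which does not depend on how libraries are scaled. shg had 13.6%, 13.8% and 13.1% of the alpha-Cat level per length in Hakai KD replicates 1, 2 and 3, against 12.1%, 11.3% and 11.6% in control KD replicates 1, 2 and 3. Relative to p120ctn, shg stood at 10.7 ± 0.262% in Hakai KD and 9.40 ± 0.454% in control KD (SD, n = 3 each), without overlap. Relative to arm, shg stood at 2.66 ± 0.0946% in Hakai KD and 2.33 ± 0.135% in control KD (SD, n = 3 each), again without overlap. Relative to Cad87A, shg stood at 103 ± 1.76% in Hakai KD and 89.9 ± 3.08% in control KD (SD, n = 3 each), with shg above Cad87A in every Hakai KD library and below it in every control KD library. Each of these ratios gave an exact permutation p of 0.1 (0.17 after adjustment over the 7 ratios computed), the smallest that 3 against 3 allow, and since they share shg they are not independent. None of these denominators was called, so that the ratios largely restate the difference already seen for shg. Relative to kug, another cadherin gene, shg stood at 26.7 ± 0.163% in Hakai KD and 28.2 ± 1.48% in control KD (SD, n = 3 each), with overlapping libraries and an exact permutation p of 0.2. kug was itself called higher in Hakai KD (log2 fold change 0.24, edgeR adjusted p = 0.019).

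**Figure D3:**
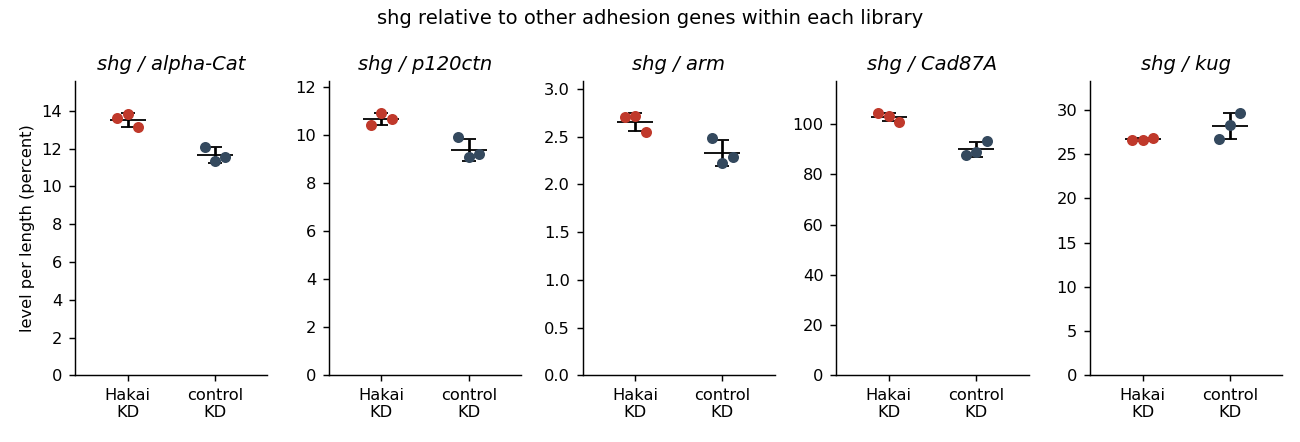
Level of shg per exon length as a percentage of that of alpha-Cat, p120ctn, arm, Cad87A and kug in the same library, with points for libraries, a bar for the mean and whiskers for 1 SD. The Hakai KD points lie above the control KD points in the first 4 panels and overlap them for kug.

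CadN showed the largest change of the members by size, on few reads. It had 38, 41 and 32 reads in Hakai KD replicates 1, 2 and 3, against 26, 34 and 16 reads in control KD replicates 1, 2 and 3. After scaling these were 38.6, 40.2 and 33.6 normalized counts in Hakai KD, against 25.0, 32.7 and 16.6 in control KD. The groups did not overlap, but Hakai KD replicate 3 and control KD replicate 2 lay within 1 normalized count of each other. The log2 fold change of 0.59 (SE 0.23, edgeR adjusted p = 0.11) did not pass the threshold, and its 95% interval ran from a rise of 5.61% to one of 114%. The control libraries varied by 32.5% around their mean, where counting alone gives 19.9%. With each library left out in turn, the log2 fold change lay between 0.38, without control KD replicate 3, and 0.84, without control KD replicate 2, and none of these fits passed the threshold.

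The catenins differed little between the groups. alpha-Cat had 4083, 4003 and 4041 normalized counts in Hakai KD replicates 1, 2 and 3, against 4276, 4151 and 4159 in control KD replicates 1, 2 and 3. Every Hakai KD library was below every control library, by a few percent. In log2 terms the change was -0.054 (SE 0.029, edgeR adjusted p = 0.24), and the 95% interval ran from -7.80% to 0.665%. p120ctn had 4111, 3900 and 3824 normalized counts in Hakai KD, against 4020, 3990 and 4020 in control KD, for replicates 1, 2 and 3 of each. Its control libraries lay inside the range of the Hakai KD libraries, and the log2 fold change was -0.024 (SE 0.033, edgeR adjusted p = 0.68). The interval of p120ctn ran from -6.44% to 3.44%, so that a change of the size of the estimate for shg lies outside it in either direction. For arm, the log2 fold change was -0.028 (SE 0.031, edgeR adjusted p = 0.58), with an interval from -6.44% to 2.80%. Neither alpha-Cat, p120ctn nor arm passed the threshold in any of the 12 alternatives.

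Cad87A had 1109, 1119 and 1093 normalized counts in Hakai KD replicates 1, 2 and 3, against 1232, 1101 and 1070 in control KD replicates 1, 2 and 3. The Hakai KD libraries fell between those of control KD. In log2 terms the change was -0.036 (SE 0.051, edgeR adjusted p = 0.69), with an interval from -9.70% to 5.42%. The sign came from control KD replicate 1, and without it the log2 fold change was 0.028. Among the large atypical cadherins, stan had 13, 8 and 12 reads in Hakai KD and 13, 13 and 7 reads in control KD, for replicates 1, 2 and 3 of each. The sums of 33 reads in each group leave a wide interval, from -38.1% to 71.9%. The smallest change detectable at this depth was not worked out. Its log2 fold change of 0.045 lay between -0.16 and 0.25 with each library left out in turn. ft had 4, 7 and 2 reads in Hakai KD and 7, 3 and 3 reads in control KD, for replicates 1, 2 and 3 of each. Its 13 reads in each group did not pass the filter on low counts, and no test of ft is given.

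**Figure D4:**
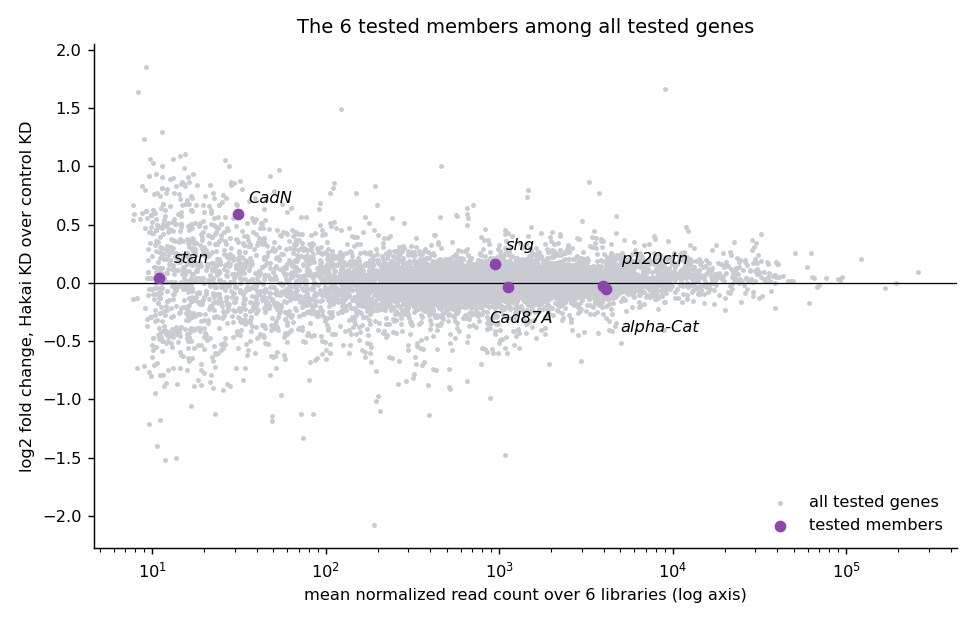
Log2 fold change of Hakai KD over control KD against the mean normalized read count (log axis) for all 7811 tested genes in grey and the 6 tested members in purple. alpha-Cat, p120ctn and Cad87A lie within 0.06 of 0, shg lies at 0.16, and the members with few reads, CadN and stan, lie where the grey cloud is widest.

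Across the 6 libraries, the genes whose log2 normalized counts followed shg most closely were brat (Pearson r = 0.99) and hrg (Pearson r = 0.99). brat had means of 3950 normalized counts in Hakai KD and 3671 in control KD, and hrg had 6349 and 6016. Their log2 fold changes were 0.11 (edgeR adjusted p = 0.046) and 0.078 (adjusted p = 0.14). The points share the same 6 libraries and the difference between the groups. The correlations are also the highest found in a search over all tested genes with only 6 points each, so that these values are a description.

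The other cadherins of the genome were taken from a list of 10 genes. Of these, 5 passed the filter on low counts, 1 was called higher and 1 lower, with a median log2 fold change of -0.21. The calls are 40% of the tested genes of this short list, beside 15.3% of all tested genes. kug, which encodes the Fat2 cadherin of migrating follicle cells, was the most abundant cadherin of those examined, with 35.2 ± 1.14 RPKM in Hakai KD and 29.9 ± 2.96 RPKM in control KD (SD, n = 3 each). It had 8694, 8685 and 8211 normalized counts in Hakai KD replicates 1, 2 and 3, against 8060, 6932 and 6733 in control KD replicates 1, 2 and 3. kug was thus called higher, at a log2 fold change of 0.24 (SE 0.058, edgeR adjusted p = 0.019). Without control KD replicate 1, the highest control library, the log2 fold change of kug was 0.32 (edgeR adjusted p = 0.00032). The adjusted p was 0.067 without Hakai KD replicate 1, 0.072 without Hakai KD replicate 2, 0.089 without control KD replicate 2 and 0.062 without control KD replicate 3. Cad99C, a cadherin of microvilli in the follicle epithelium, had 339, 313 and 344 normalized counts in Hakai KD, against 394, 378 and 380 in control KD, for replicates 1, 2 and 3 of each. It was lower, with a log2 fold change of -0.21 (SE 0.059, edgeR adjusted p = 0.033). The call of Cad99C did not hold with DESeq2 (adjusted p = 0.19) or without Hakai KD replicate 1, Hakai KD replicate 2, control KD replicate 1, control KD replicate 2 or control KD replicate 3 (adjusted p between 0.063 and 0.12). Cals, the calsyntenin gene, was well expressed at 24.2 ± 1.42 RPKM in Hakai KD and 23.5 ± 0.928 RPKM in control KD (SD, n = 3 each) and was not called (log2 fold change 0.041, adjusted p = 0.59). Its exons overlap those of sv on the other strand by 444 bases.

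Proteins that join or regulate adherens junctions were examined in a list of 17 genes, of which 16 were tested. Of these, 3 were called higher and 2 lower, with a median log2 fold change of 0.048. The calls are 31.2% of the tested genes of the list, beside 15.3% of all tested genes. Vinc, the vinculin gene, whose product binds α-catenin under tension, had 9755, 10390 and 10370 normalized counts in Hakai KD, against 8383, 9029 and 8865 in control KD, for replicates 1, 2 and 3 of each. All Hakai KD libraries were above all control libraries, and the log2 fold change was 0.22 (SE 0.039, edgeR adjusted p = 0.0037). pyd, the ZO-1 homologue, had 2114, 2010 and 1981 normalized counts in Hakai KD, against 2390, 2321 and 2254 in control KD, and sdt, a scaffold of the Crumbs complex, had 338, 341 and 355, against 440, 444 and 476. Both were lower, pyd at a log2 fold change of -0.19 (edgeR adjusted p = 0.0061) and sdt at one of -0.40 (edgeR adjusted p = 0.0010). They were, like Vinc, called in all 12 alternatives. The exons of pyd overlap those of CG8379 and of a tRNA gene on the other strand.

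RhoGEF2, an activator of Rho1 and myosin contractility, was higher by 0.16 on the log2 scale (edgeR adjusted p = 0.015), and ena, which promotes actin filament growth, by 0.13 (edgeR adjusted p = 0.024). Scaling by library size alone raised these adjusted p-values to 0.061 for RhoGEF2 and 0.11 for ena. Without Hakai KD replicate 1, Hakai KD replicate 2 or control KD replicate 2 they lay between 0.053 and 0.067 for RhoGEF2, and without these libraries or control KD replicate 3 between 0.062 and 0.080 for ena. Exons of RhoGEF2 overlap 2 antisense RNA genes.

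In the list of 16 Fat and Dachsous pathway genes, 12 were tested, 2 were called higher and 0 lower, with a median log2 fold change of 0.059. The share called, 16.7%, is close to the 15.3% of all tested genes. The lowest value of a tested gene in this list was -0.033, for dco, a kinase of the Fat intracellular domain. The highest was 0.33, for Fbxl7, whose groups did not overlap but which was not called (edgeR adjusted p = 0.056). The exons of Fbxl7 overlap those of CG5478 by 188 bases and of asRNA:CR46470 by 280 bases, both on the other strand. The 3 untested genes in the files, fj, Dlish and lft, were at traces. fj, the Golgi kinase that phosphorylates Fat and Dachsous repeats, had means of 2.70 normalized counts in Hakai KD and 1.97 in control KD. kibra, an upstream activator of Hippo signalling, had 4947, 4977 and 4702 normalized counts in Hakai KD, against 4302, 3989 and 4022 in control KD, for replicates 1, 2 and 3 of each. Its log2 fold change was 0.25 (SE 0.038, edgeR adjusted p = 0.0014). wts, the kinase that inhibits Yorkie, was higher by 0.17 on the log2 scale (SE 0.034, edgeR adjusted p = 0.0061). kibra and wts were called in all 12 alternatives.

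In the list of 5 core planar polarity genes, 3 were tested, 2 were called higher and 0 lower, with a median log2 fold change of 0.11. These calls are 66.7% of the tested genes of this short list, beside 15.3% of all tested genes. The remaining tested gene, dsh, was lower without overlap but was not called (log2 fold change -0.10, edgeR adjusted p = 0.12). fz, the Frizzled receptor that assembles with Flamingo, had 614, 586 and 612 normalized counts in Hakai KD replicates 1, 2 and 3, against 506, 507 and 523 in control KD replicates 1, 2 and 3. The log2 fold change of 0.24 (SE 0.047, edgeR adjusted p = 0.0060) was called in all 12 alternatives. Vang, the Van Gogh partner on the opposite cell face, had a log2 fold change of 0.11 (adjusted p = 0.041). The call of Vang did not hold in 9 of the 12 alternatives, among them DESeq2 (adjusted p = 0.078), scaling by library size (0.18) and all genes kept (0.059). Vang also lost its call without Hakai KD replicate 1, 2 or 3 and without control KD replicate 2 or 3, with an adjusted p between 0.077 and 0.14.

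Genes of cadherin traffic and cleavage were examined in a list of 12, of which 11 were tested, 1 was called higher and 1 lower, with a median log2 fold change of -0.00096. The share called, 18.2%, is close to the 15.3% of all tested genes. kuz encodes a protease that cleaves Notch and whose mammalian homologue sheds E-cadherin. It had 4463, 4529 and 3305 normalized counts in Hakai KD replicates 1, 2 and 3, against 2820, 3302 and 3305 in control KD replicates 1, 2 and 3. Hakai KD replicate 3 thus lay at the level of control KD replicates 2 and 3. kuz was called higher, at a log2 fold change of 0.38 (SE 0.10, edgeR adjusted p = 0.025), and the adjusted p was 0.11 with DESeq2. It was 0.11 without Hakai KD replicate 1, 0.11 without Hakai KD replicate 2, 0.079 without control KD replicate 1 and 0.062 without control KD replicate 2. Sec6, a subunit of the exocyst, through which E-cadherin reaches the membrane, fell by 0.22 on the log2 scale (SE 0.049, edgeR adjusted p = 0.013, and 0.055 without Hakai KD replicate 2). Without control KD replicate 1 it fell by 0.16 on the log2 scale (edgeR adjusted p = 0.022). The other exocyst genes listed were not called, with log2 fold changes of -0.093 for Exo84 (edgeR adjusted p = 0.071), -0.082 for Sec5 (edgeR adjusted p = 0.35) and 0.052 for Sec15 (edgeR adjusted p = 0.46). The genes of endocytosis and recycling, Rab5, Rab11, shi and Hrs, had log2 fold changes between -0.00096 and 0.028 and none was called. Of the Snail family, sna, which encodes a repressor of E-cadherin in Drosophila embryos, had means of 1.05 normalized counts in Hakai KD and 0.960 in control KD, and wor had 0.339 in Hakai KD and 0 in control KD. esg, of the same family, was not analysed here.

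**Figure D5:**
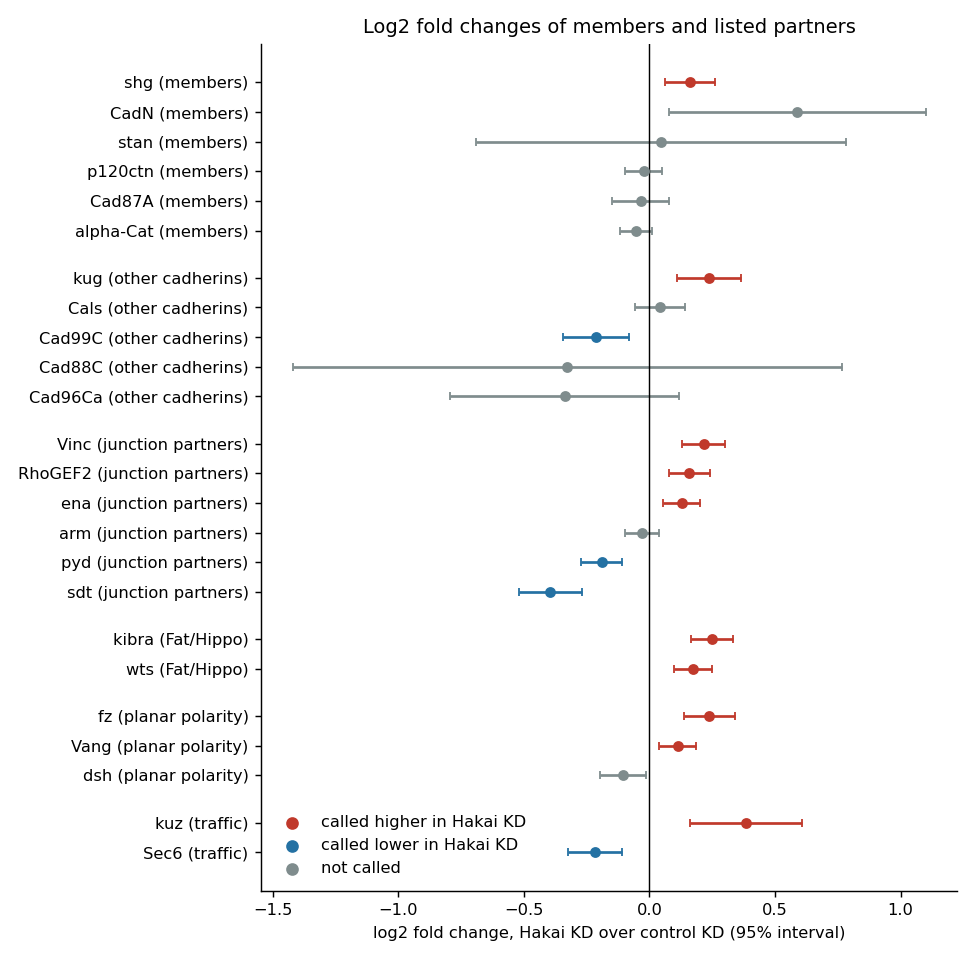
Log2 fold changes of Hakai KD over control KD with 95% intervals for the 6 tested members and for listed partners, with called genes in red (higher) or blue (lower) and genes that were not called in grey. The partners shown are those called in their list together with arm, dsh and the other tested cadherins. shg is the only member in red, and the intervals of alpha-Cat, p120ctn and arm include 0.

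Over the 5 pathway lists together, 47 genes were tested, of which 9 were called higher and 4 lower, at a median log2 fold change of 0.029. These 13 calls are 27.7% of the listed genes that were tested, beside 15.3% of all tested genes, and the lists were put together with earlier results of these libraries known. Of the 13 calls, 6 held in all 12 alternatives (Vinc, pyd, sdt, kibra, wts and fz).

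The cell type was checked with marker lists. Hemocyte-like markers summed to 1430 to 1450 CPM (counts scaled to the effective library size, with TMM factors) in Hakai KD and 1400 to 1440 in control KD, with 9 of 10 markers tested and 3 of them (Hml, Pxn and Ppn) called higher. Most of the sum came from ush, crq, srp and Pxn. Hml was low, with 1.46 RPKM in Hakai KD and 0.985 RPKM in control KD, as was eater, with 2.01 and 2.12 RPKM. The called rises were 47.5% for Hml, 14.6% for Pxn and 49.2% for Ppn. The calls are 33.3% of those tested, beside 15.3% of all tested genes, and 5 of the 9 had a log2 fold change above 0. Those of srp, crq, eater and ush lay below 0, between -0.078 and -0.016, and were not called. NimC1 was not tested and was at traces, with means of 5.76 normalized counts in Hakai KD and 3.94 in control KD. The transcription factor srp had means of 4007 normalized counts in Hakai KD and 4132 in control KD. The exons of srp, ush and Pxn overlap those of lncRNA genes on the same strand by 938, 524 and 151 bases. Epithelial markers summed to 1490 to 1520 CPM in Hakai KD and 1270 to 1350 in control KD, mostly from cora, and 2 of 7 tested genes (cora and bib) were called higher and 1 (sdt) lower. These calls are 42.9% of those tested, beside 15.3% of all tested genes. bib had only 11, 13 and 13 reads in Hakai KD and 3, 3 and 6 in control KD, for replicates 1, 2 and 3. It passed the filter through its Hakai KD libraries alone, so that its call carries no weight. The epithelial transcription factor grh had a mean of 0.339 normalized counts in Hakai KD and 0 in control KD. Neuronal markers summed to 452 to 473 CPM in Hakai KD and 482 to 489 in control KD, with 0 of 3 tested genes called. Most of this sum was Syb, at means of 7296 normalized counts in Hakai KD and 7663 in control KD, and elav had 402 and 419. The exons of elav overlap those of lncRNA:enrr on the same strand by 2994 bases and those of arg on the other strand by 673 bases. The synaptic genes brp (14.5 in Hakai KD and 11.2 in control KD), nSyb (2.39 and 4.95) and Syt1 (3.04 and 4.53) were at traces. Muscle markers summed to 102 to 104 CPM in Hakai KD and 93.3 to 103 in control KD, with 0 of 1 tested gene called. Nearly all of it was Mef2, at means of 1707 normalized counts in Hakai KD and 1627 in control KD, whereas Mhc (4.43 in Hakai KD and 1.63 in control KD), up (3.04 and 3.26) and Act57B (3.07 and 3.99) were at traces. The called markers were named after their values were seen. Whether a shift of cell state with these markers has a part in the rise of shg was not tested.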

How the data were processed

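The authors mapped single reads of poly(A) RNA with STAR (2.5.1b in the submitters' processing notes) to the BDGP6 assembly, counted them per gene with featureCounts (1.5.1) and deposited raw counts without normalization or pooling. The strand setting of the counting is not given in the sources used here. Exon overlaps are mentioned for some genes only, and other listed genes also share exon bases with neighbours. Of the 17559 identifiers, 17253 have a symbol and position in the Ensembl annotation of BDGP6.54, and 306 have none. Counts were analysed in R 4.3.3 with edgeR 4.0.16: filterByExpr (minimum count 10, minimum total 15), TMM factors and the quasi-likelihood test without covariates, with Benjamini-Hochberg adjustment over all tested genes and a threshold of 0.05. Standard errors were derived from each log2 fold change and its F statistic and are approximate. The procedure was tested on simulated data. Levels per length used the union of annotated exons. The study describes the replicates of its knockdown RNA-seq as biological.

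The members and gene lists were chosen with earlier results of these data known. The text names all members, Hakai, arm, Vinc, fz and fj, and from each pathway list up to 5 called genes with the largest change. Other genes were named after their values were seen. For each called member, the 2 genes with the highest correlation of log2(normalized count + 0.5) were named. The listed gene d could not be matched to a symbol, and zip, Psn, esg and wupA have identifiers that are not among those of the files, so that they were not used here. The 7 ratios between genes within libraries were added to the planned comparisons. Those with shg as numerator are given, and those of alpha-Cat to arm and of p120ctn to alpha-Cat are not. Alternatives were DESeq2 1.42.0, its size factors in edgeR, library size alone, no filter, at least 10 counts in every library, a replicate block, and each library left out in turn.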

Additional observations from a re-analysis of the deposited data

How the results depend on the processing

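With each library left out in turn, the number of genes called, 1195 with all libraries, lay between 708 and 1014, and the number of members called, 1 with all libraries, lay between 0 and 1. DESeq2 and library size alone gave 0 members. The log2 fold change of shg was 0.16 with DESeq2 and 0.12 with library size alone, and lay between 0.13 and 0.20 with each library left out, with the call lost in 4 of these 6 fits. Over the same fits, the log2 fold change of Cad87A lay between -0.075 and 0.028 and that of stan between -0.16 and 0.25, and neither was called. The causes were not tested. Library size alone moved the median log2 fold change of all genes by -0.035.

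Same-numbered replicates did not deviate together (correlations of -0.067, -0.033 and -0.074 across genes). Under a replicate block, edgeR called 1152 genes, the log2 fold change of shg was 0.16 with an adjusted p of 0.034 from edgeR, and 1 member was called, while the call of Vang was lost (adjusted p = 0.054). For Hakai, the log2 fold change stayed between -2.13 and -2.03 in all 12 alternatives. The depth limits CadN, stan and ft, whose mean counts are low enough that counting alone gives an error of 16.4% or more in either group. The fit with at least 10 counts in every library gives no value for stan or ft.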
